A study of Mus with 9 samples.

Results

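The 9 genes described here encode transcription factors that set the identity and rhythm of the heart's chambers: Tbx5, Nr2f2, Irx4, Hey2, Hand2, Nkx2-5, Gata4, Mef2c and Tbx20. They were chosen by name, and all 9 occur once among the 55421 genes of the deposited count table. They were followed across 9 bulk RNA sequencing libraries labelled as atria, with 3 libraries in each of 3 groups. All animals were wild-type male C57BL/6J mice of 8 to 10 weeks by the treatment protocol, although another field of the labels speaks of rats. Sham animals had surgery without coronary ligation and received vehicle. MI animals had the left anterior descending coronary artery tied off for good, which causes myocardial infarction, and received vehicle. MI_ART animals had the same ligation and received artesunate, an antimalarial drug derived from artemisinin. The artesunate dose is given as 25 mg/kg daily from surgery for 7 days in one field and as 10 mg/kg every other day, starting 2 days before surgery and ending on day 7, in another. The vehicle libraries of the infarcted group are titled MI2, MI3 and MI4. The libraries labelled Sham by their treatment are titled CON1-AF, CON2-AF and CON3-AF, with a suffix that no label explains and that the other libraries do not carry. No label states that each library is a separate animal, so the p-values rest on a spread between samples that may be technical.

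Heart chambers are laid down by a small set of DNA-binding proteins that work together on the same enhancers. Gata4, Nkx2-5, Tbx5, Mef2c and Hand2 form the shared core that switches on the muscle program. On top of it Nr2f2 and Tbx5 favour atrial genes, whereas Irx4 and Hey2 favour ventricular genes and hold atrial ones down. In the adult, Tbx5, Nkx2-5 and Tbx20 keep up the ion channels, connexins and calcium-handling proteins of rhythm and conduction, and several of these genes are associated with atrial fibrillation or congenital heart disease in people. Most of them are not limited to heart muscle cells: Nr2f2 is also made in venous and lymphatic endothelium, Hey2 in arterial endothelium and smooth muscle, Mef2c in endothelium and myeloid cells, and Gata4, Tbx5, Tbx20 and Hand2 in cardiac fibroblasts. In bulk tissue, fewer cells of a type and less RNA per cell cannot be told apart.

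Total counts ranged from 68046341 to 83685313 per library, and levels are given as CPM, counts divided by the library size in units of 1e6 after TMM scaling (edgeR's trimmed mean of log ratios). Counts of the members ran from 264 to 11874. Mitochondrially encoded genes took 37.7% to 43.1% of counts in Sham, 12.6% to 20.6% in MI and 23.0% to 25.5% in MI_ART. With plain total counts in place of TMM, the median log2 fold change of all genes moved from 0.04 to 0.88 in MI versus Sham, from 0.01 to 0.75 in MI_ART versus Sham and from -0.00 to -0.11 in MI_ART versus MI, so a member's change is read against that shift. The labelled tissue was checked by its light chains. Atrial Myl7 stood at 822, 168 and 576 CPM in Sham 1 to 3, at 453, 347 and 989 CPM in MI 2 to 4 and at 173, 803 and 1.96 CPM in MI_ART 1 to 3. Ventricular Myl2 stood at 2989, 2967 and 3786 CPM in Sham, 846, 816 and 455 CPM in MI and 946, 978 and 1537 CPM in MI_ART. Myl2 was thus the higher count in 8 of 9 libraries, and MI_ART 3 held almost no Myl7. MI 4 also stood apart, with titin (Ttn) at 178 CPM against 1265 to 4546 CPM in the other 8 libraries. Several results below are given with and without these libraries.

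Of the atrial factors, Tbx5 (T-box factor 5, gene ENSMUSG00000018263, chromosome 5, 119796514 to 119885220 on GRCm38.p6) was the most variable member between libraries of one group. Its level was 38.1, 23.6 and 26.4 CPM in Sham 1 to 3, 27.5, 19.1 and 25.5 CPM in MI 2 to 4, and 15.1, 37.4 and 8.17 CPM in MI_ART 1 to 3. The 3 groups overlapped, and the MI_ART libraries held both the lowest value and the second highest. Pooled over groups, the within-group SD of its log2 CPM was 0.69, above that of 94.9% of 10034 tested genes in the level range of the members, whose median was 0.28. Within Sham and within MI_ART the libraries ranked by Tbx5 as they ranked by Myl7, and within MI they did not, since MI 2 exceeded MI 4. Beside the near absence of Myl7 in MI_ART 3, Tbx5 was still present there at 663 counts.

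Nr2f2 (COUP-TFII, an orphan nuclear receptor, gene ENSMUSG00000030551, chromosome 7, 70351946 to 70366746) held a narrow range. It stood at 14.2, 12.1 and 15.9 CPM in Sham, 13.2, 12.4 and 15.8 CPM in MI and 11.98, 14.3 and 10.1 CPM in MI_ART. All 3 groups overlapped, and the lowest library was again MI_ART 3. Its within-group SD of 0.21 log2 lay above only 28.3% of the same 10034 genes. A long noncoding gene that overlaps Nr2f2, B130024G19Rik, held 8.51% to 28.8% as many counts as Nr2f2, and as the strand setting of the counting is not given, reads of the pair may not have been told apart.

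Of the ventricular factors, Hey2 (a Notch-responsive basic helix-loop-helix repressor, gene ENSMUSG00000019789, chromosome 10, 30832359 to 30842783) was lower in both infarcted groups than in Sham with TMM scaling. Its level was 6.58, 13.2 and 7.03 CPM in Sham 1 to 3, 3.69, 3.48 and 2.84 CPM in MI 2 to 4, and 3.36, 6.06 and 4.22 CPM in MI_ART 1 to 3. Every infarcted library, with or without artesunate, lay below every Sham library. Sham 2 was far above the other Sham libraries and was also the Sham library with the least Myl7. It also held the highest Sham sum of smooth muscle and pericyte markers, at 2516 CPM against 1671 and 1594 CPM. The part of either in its Hey2 level was not tested.

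Irx4 (Iroquois homeobox 4, gene ENSMUSG00000021604, chromosome 13, 73259589 to 73269622) stood at 24.1, 26.8 and 20.2 CPM in Sham, 19.8, 12.3 and 7.96 CPM in MI and 21.0, 20.9 and 19.1 CPM in MI_ART. The MI libraries were spread widely below Sham, with MI 2 just under the lowest Sham library and MI 4 the lowest of all 9. MI_ART libraries were close together and overlapped both other groups.

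The core factors Gata4 and Nkx2-5 bind each other on cardiac promoters. Gata4, a zinc finger factor (gene ENSMUSG00000021944, chromosome 14, 63198914 to 63271712), stood at 119.8, 111.6 and 89.2 CPM in Sham, 115.4, 97.2 and 91.4 CPM in MI and 88.2, 109.6 and 92.3 CPM in MI_ART. Its within-group SD of 0.19 log2 was the smallest of the 9, and the groups overlapped almost wholly. Nkx2-5, a homeobox factor (gene ENSMUSG00000015579, chromosome 17, 26838664 to 26844988), stood at 28.7, 33.0 and 18.1 CPM in Sham, 34.96, 22.8 and 56.6 CPM in MI and 22.6, 30 and 25.0 CPM in MI_ART. MI 4 was far above the other 8 libraries, which overlapped.

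Hand2, a basic helix-loop-helix factor (gene ENSMUSG00000038193, chromosome 8, 57320983 to 57324517), stood at 27.2, 25.9 and 26.0 CPM in Sham, 19.0, 13.2 and 28.5 CPM in MI and 16.7, 21.2 and 20.0 CPM in MI_ART. The Sham libraries were tight, all MI_ART libraries lay below them, and MI 4 alone of the infarcted libraries lay above them. Mef2c, a MADS-box factor (gene ENSMUSG00000005583, chromosome 13, 83504017 to 83667079), stood at 8.19, 9.16 and 9.92 CPM in Sham, 7.72, 6.96 and 21.5 CPM in MI and 7.07, 8.53 and 5.10 CPM in MI_ART. MI 4 again exceeded every other library, and without it the MI libraries lay below all of Sham. Tbx20, a T-box factor that represses Tbx2 (gene ENSMUSG00000031965, chromosome 9, 24720812 to 24774303), stood at 130.8, 110.3 and 118.1 CPM in Sham, 134.2, 127.3 and 60.9 CPM in MI and 121.9, 129.7 and 110.1 CPM in MI_ART. Here MI 4 was the lowest library, below the other 8, which overlapped.

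**Figure D1:**
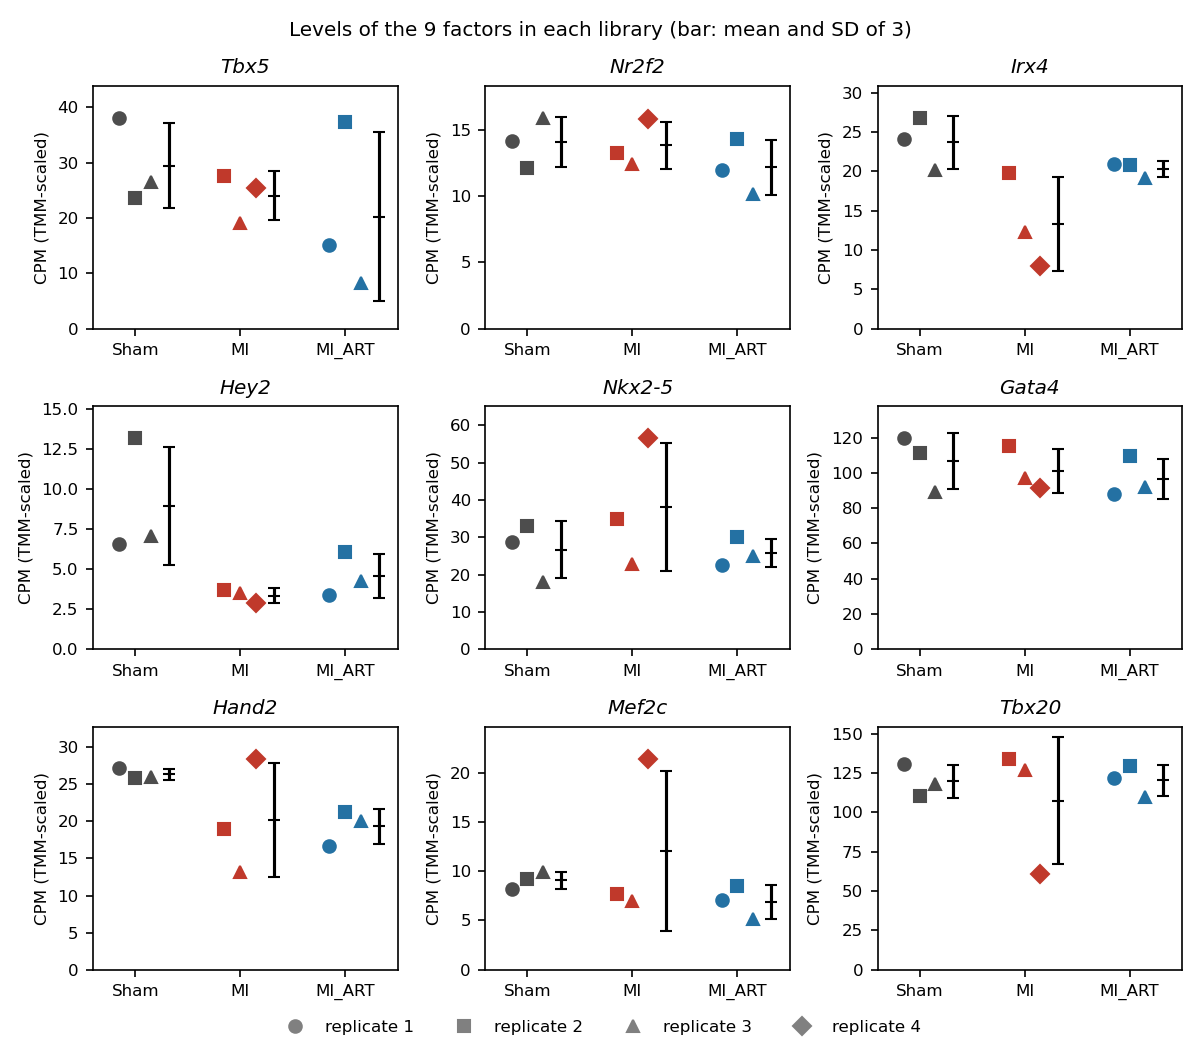
Level of each factor (CPM, TMM-scaled, axis from 0) in the 9 libraries by group, with symbols for the replicate number and a bar for the mean and SD of 3 libraries. The Hey2 points of MI and MI_ART all sit below those of Sham, Tbx5 spreads from 8.17 to 37.4 CPM within MI_ART, and MI 4 (diamond) is the highest point for Nkx2-5, Hand2 and Mef2c and the lowest for Irx4, Hey2 and Tbx20.

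MI 4 therefore moved the members in opposite directions within its group. On the log2 scale it lay above the MI mean by 1.03 in Mef2c, 0.67 in Nkx2-5 and 0.57 in Hand2. It lay below that mean in Tbx20 (-0.74), Irx4 (-0.64) and Hey2 (-0.22). Ratios of counts within a library do not depend on scaling and showed the same. Mef2c over Gata4 was 0.235 in MI 4 against 0.0553 to 0.111 in the other 8 libraries, and Nkx2-5 over Gata4 was 0.619 against 0.203 to 0.303. Tbx20 over Gata4 was 0.666 in MI 4 against 0.988 to 1.38 elsewhere. MI 4 also held the highest summed level of the atrial muscle markers (31112 CPM, against 3360 to 17938 elsewhere) and the lowest of the ventricular markers (4701 CPM, against 7233 to 15493). Nppa alone gave 20599 CPM of that atrial sum, and its mean was 3340 CPM in Sham and 14530 CPM in MI. Other atrial markers differed in direction: MI 4 was the highest library for Myl7 (989 CPM) and the lowest for Kcnj3 (2.80 CPM). The part of these markers in the deviations was not tested.

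**Figure D2:**
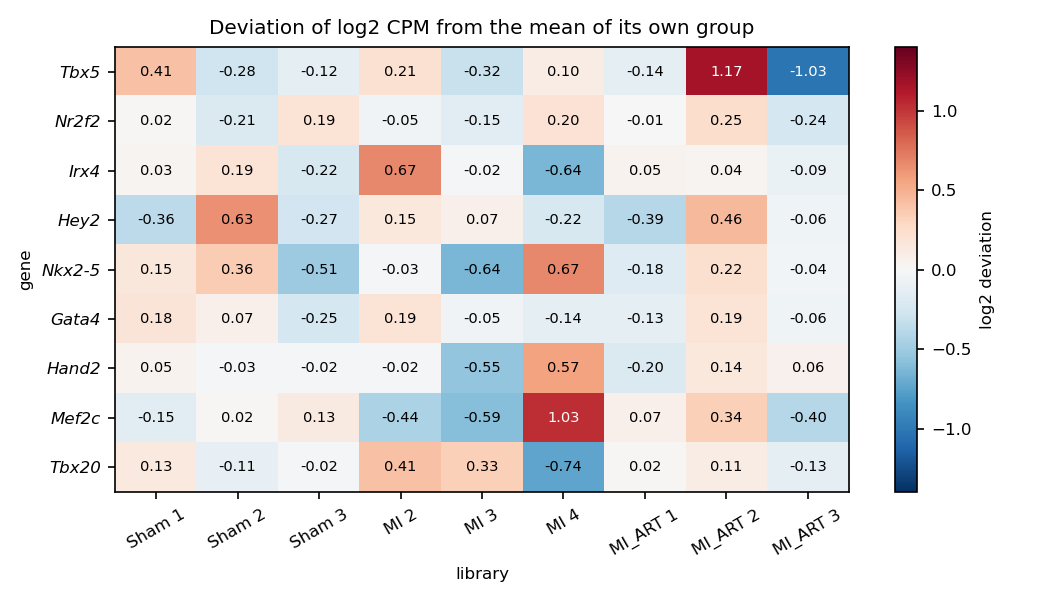
Deviation of log2 CPM of each factor (rows) in each library (columns) from the mean of its own group, from blue (below) to red (above). The strongest deviations are Tbx5 in MI_ART 2 (1.17) and MI_ART 3 (-1.03) and Mef2c in MI 4 (1.03), and Nr2f2 and Gata4 lie at most 0.25 from their group means.

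The balance of atrial over ventricular factors was set beside that of the light chains. Tbx5 over Irx4 had ratios of 1.58, 0.881 and 1.31 for Sham 1 to 3. It had ratios of 1.39, 1.56 and 3.20 for MI 2 to 4, and of 0.721, 1.79 and 0.428 for MI_ART 1 to 3. Myl7 over Myl2 was 0.275, 0.0565 and 0.152, then 0.536, 0.424 and 2.17, then 0.183, 0.822 and 0.00128 in the same order. MI 4 and MI_ART 2 were the highest libraries by both ratios, and MI_ART 3 was the lowest by both. Nr2f2 over Irx4 was 0.588, 0.450 and 0.788 in Sham, 0.670, 1.01 and 1.98 in MI and 0.571, 0.685 and 0.531 in MI_ART. By this ratio MI 4 was again the highest, but Sham 2 and not MI_ART 3 was the lowest. These are descriptions of single libraries, and the groups overlapped in both ratios over Irx4. Over Hey2 the 2 atrial factors differed. Nr2f2 over Hey2 was 2.15, 0.919 and 2.26 in Sham, 3.59, 3.56 and 5.55 in MI and 3.57, 2.36 and 2.41 in MI_ART. Sham thus lay below both infarcted groups without overlap, whereas all groups overlapped for Tbx5 over Hey2. The share of all genes that separate in this way over Hey2 was not computed, so this is not read as a result about Nr2f2.

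**Figure D3:**
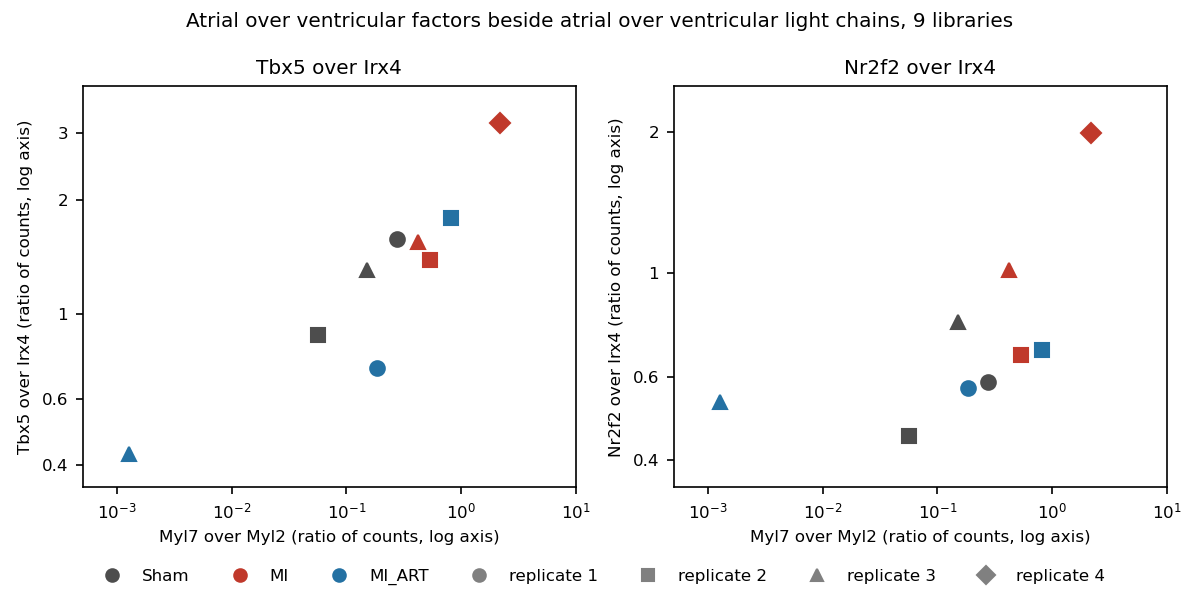
Counts of Tbx5 (left) or Nr2f2 (right) over Irx4 against counts of Myl7 over Myl2 in each of the 9 libraries, both axes logarithmic, with colours for groups and symbols for replicate numbers. MI 4 sits at the upper right in both panels, and MI_ART 3, with Myl7 over Myl2 at 0.00128, sits at the far left.

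The first comparison asks what infarction changed. Of the 9 factors, only Hey2 passed the test in MI versus Sham (edgeR quasi-likelihood test, Benjamini-Hochberg adjusted over 19326 genes), while 33.1% of all tested genes were called (18.8% higher, 14.3% lower). At an unadjusted p under 0.05 there were 2 of 9, Hey2 and Irx4, beside 43.9% of all genes. Hey2 fell 2.67-fold, from 8.92 ± 3.67 to 3.34 ± 0.441 CPM (SD, n = 3 each), with a log2 value of -1.42 (edgeR adjusted p = 0.00869, SE 0.33). It passed with each of the 9 libraries left out in turn (edgeR adjusted p from 0.0107 to 0.0345), and its log2 value was -1.03 without Sham 2. It also passed with the Myl7 to Myl2 ratio as a covariate (log2 -1.42, edgeR adjusted p = 0.0242). That ratio did not overlap between Sham (0.0565 to 0.275) and MI (0.424 to 2.17), so this fit cannot tell it apart from infarction. With total counts the Hey2 value was -0.60 and did not pass (adjusted p = 0.177), which is -1.48 relative to the median gene in that scaling.

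Irx4, the other ventricular factor, averaged 23.7 ± 3.36 CPM in Sham and 13.3 ± 5.98 CPM in MI (SD, n = 3 each), with no overlap between libraries. Its log2 value was -0.83 (SE 0.29, 95% interval -1.48 to -0.18), with an adjusted p of 0.0513 by edgeR, just outside the threshold. DESeq2 gave an adjusted p of 0.0254 and limma-voom 0.0325 (these tools called 39.1% and 32.3% of all genes), while with 1 library left out it passed by edgeR in 1 of 9 cases. That was without MI 2 (log2 -1.23, adjusted p = 0.00496), and the adjusted p reached 0.145 without Sham 2. Without MI 4, its lowest library, Irx4 had -0.56 (adjusted p = 0.0750). With total counts its value was -0.01, which is -0.89 relative to the median gene in that scaling. With TMM, libraries of MI and Sham did not overlap for these 2 ventricular factors, both lower, against 23.2% of all tested genes that were lower without overlap. With total counts the libraries overlapped for both factors.

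The other 7 factors did not pass in MI versus Sham, and their groups overlapped. The log2 values were 0.52 for Nkx2-5 (SE 0.33, adjusted p = 0.253) and 0.41 for Mef2c (SE 0.40, adjusted p = 0.479). Without MI 4 they were 0.12 for Nkx2-5 and -0.31 for Mef2c, neither of which passed. Hand2 had -0.38 (adjusted p = 0.277), and without MI 4 it was lower by -0.71 with an adjusted p of 0.0165. Tbx5 had -0.29 (95% interval -1.32 to 0.73), Tbx20 -0.16 (-0.75 to 0.44), Gata4 -0.08 (-0.47 to 0.31) and Nr2f2 -0.02 (-0.46 to 0.41). The intervals of Gata4 and Nr2f2 leave room for changes of less than 0.5 on the log2 scale in either direction, whereas that of Tbx5 includes more than a doubling downward. The median over the 9 was -0.16, beside 0.04 over all tested genes. With total counts, where 52.6% of all genes were called and 93.7% of those calls were higher (56.7% with TMM), 5 of the 9 were called higher: Nkx2-5, Mef2c, Nr2f2, Gata4 and Tbx20. Relative to the median gene of that scaling these 5 stood at 0.47, 0.39, -0.04, -0.13 and -0.20.

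Markers of several cell types also differed between MI and Sham. Of 13 ventricular muscle markers 10 fell and 1 rose in MI, and their summed level ranged from 14147 to 15493 CPM in Sham, 4701 to 8374 in MI and 7501 to 8917 in MI_ART. Of 10 markers shared by all heart muscle cells 6 fell, and their sum was 54800 to 61141 CPM in Sham and 23531 to 32550 in MI. Of 10 endothelial markers 3 fell (1618 to 1775 CPM in Sham, 1091 to 1417 in MI), but 6 had a positive log2 value and the median was 0.11. The largest of them, Fabp4, stood at 714, 773 and 905 CPM in Sham and 352, 427 and 494 CPM in MI. Of 10 smooth muscle and pericyte markers 3 fell (1594 to 2516 and 941 to 1838 CPM). Macrophage and monocyte markers rose in 10 of 10 (376 to 560 and 2936 to 3514 CPM) and fibroblast markers rose in 6 of 10 and fell in 2 (3677 to 4043 and 8464 to 10062 CPM). No marker of these lists was at 0 in any library. These sums depend on the scaling: with total counts in place of TMM, a reading added after seeing the data, the endothelial sum was 1108 to 1253 in Sham and 1301 to 1817 in MI, which turns its direction. The groups then overlapped for the ventricular (9668 to 11023 and 6027 to 9989), shared heart muscle (35820 to 43554 and 30170 to 38825) and smooth muscle sums (995 to 1872 and 1122 to 2357). Macrophage and fibroblast sums were still higher in MI without overlap. Set against the ventricular marker counts of the same library, Hey2 was 0.465, 0.888 and 0.454 per 1000 in Sham and 0.441, 0.482 and 0.605 in MI, so the groups overlapped. Set against endothelial marker counts it was 4.07, 7.81 and 3.96 per 1000 in Sham and 3.38, 2.63 and 2.01 in MI, without overlap. The share of all genes that separate in this way was not computed for this ratio, so the separation is not read as a result about Hey2. The part of these cell types in the Hey2 and Irx4 values was not tested.

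**Figure D4:**
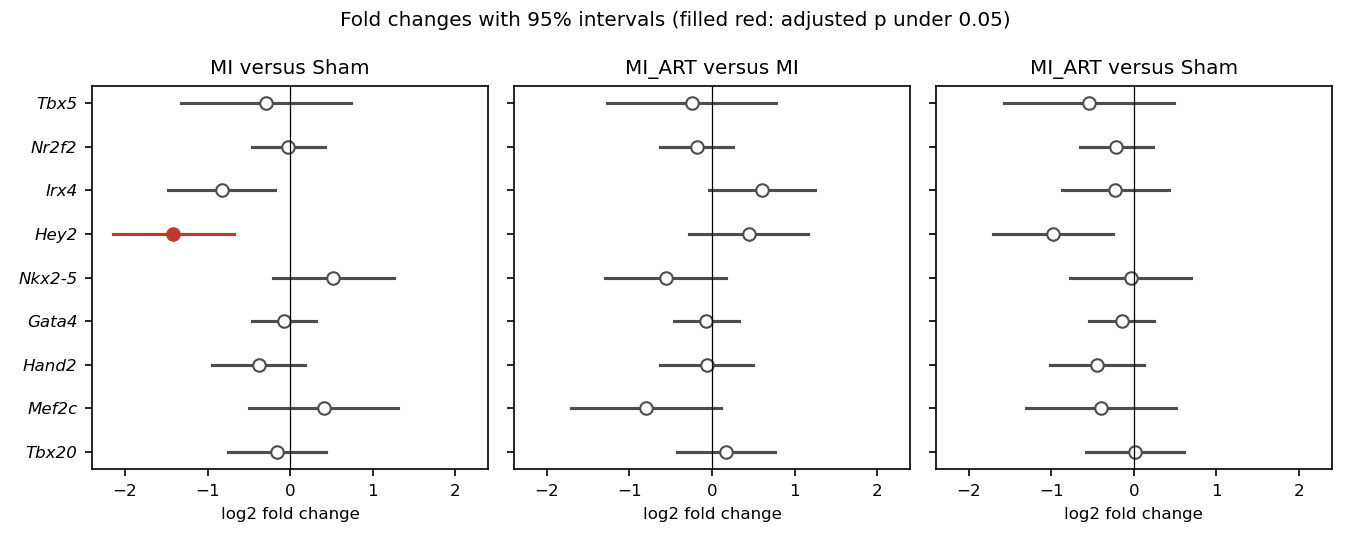
Log2 fold change of each factor in the 3 comparisons, with lines for the 95% interval from the edgeR fit and a filled red point for an adjusted p under 0.05. Hey2 in MI versus Sham, at -1.42, is the only filled point, and with total counts in place of TMM it stays below 0 at -0.60 without passing.

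The second comparison asks what artesunate changed after infarction. None of the 9 factors passed in MI_ART versus MI (edgeR), 0 of 9 had an unadjusted p under 0.05, and DESeq2 and limma-voom also called 0. Of all tested genes 0.0103% were called by edgeR, 0.455% by DESeq2 and 0.00517% by limma-voom, and 6.96% had an unadjusted p under 0.05. The smallest unadjusted p belonged to Irx4, which averaged 13.3 ± 5.98 CPM in MI and 20.3 ± 1.06 CPM in MI_ART (SD, n = 3 each). Its log2 value was 0.61 (95% interval -0.04 to 1.25, edgeR adjusted p = 0.726), and its groups overlapped through MI 2. Without MI 4 Irx4 had 0.34 and without MI 2 it had 1.01, neither of which passed. Mef2c had -0.80 (95% interval -1.71 to 0.10), which was -0.09 without MI 4. Nkx2-5 had -0.56 (-1.29 to 0.17) and -0.16 without MI 4. Hey2 had 0.44 (-0.28 to 1.17), from 3.34 ± 0.441 to 4.55 ± 1.38 CPM.

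Tbx5 had -0.25 in MI_ART versus MI (95% interval -1.27 to 0.78), and the value was 0.13 without MI_ART 3 and -1.04 without MI_ART 2. With the Myl7 to Myl2 ratio as a covariate it was 0.30. Nr2f2 had -0.19 (-0.62 to 0.25), Tbx20 0.17 (-0.43 to 0.76), Gata4 -0.07 (-0.46 to 0.32) and Hand2 -0.07 (-0.63 to 0.50). For no member did the libraries of the 2 groups separate, against 13.9% of all tested genes. The intervals of 5 of the 9, Tbx5, Mef2c, Irx4, Hey2 and Nkx2-5, reach past 1 on the log2 scale in 1 direction.

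The third comparison asks what still differed from Sham with artesunate, and it shares the Sham libraries with the first and the MI_ART libraries with the second. None of the 9 factors passed in MI_ART versus Sham by edgeR or limma-voom, 1 had an unadjusted p under 0.05, and DESeq2 called 1, beside 20.3% of all tested genes called by edgeR, 18.6% by limma-voom and 26.7% by DESeq2, and 33.3% with an unadjusted p under 0.05. That one was Hey2, with a log2 value of -0.97 (SE 0.32, 95% interval -1.70 to -0.25, edgeR adjusted p = 0.0617) and a DESeq2 adjusted p of 0.0253. Without MI 4, which enters this comparison only through the shared dispersion, scaling and filter, the edgeR adjusted p of Hey2 was 0.0476, the 1 of 9 leave-outs in which it passed. Without Sham 2 its log2 value was -0.58 (adjusted p = 0.237), and the adjusted p was 0.213 without MI_ART 1 and 0.172 without MI_ART 3. With TMM, the libraries of Hey2 and Hand2 did not overlap, both lower, where 22.8% of all tested genes were lower without overlap. With total counts the libraries overlapped for both factors. Hand2 went from 26.4 ± 0.768 to 19.3 ± 2.35 CPM (SD, n = 3 each, log2 -0.45, edgeR adjusted p = 0.254). With total counts Hand2 had 0.29, or -0.46 relative to the median gene.

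Tbx5 had -0.54 in MI_ART versus Sham (95% interval -1.57 to 0.49, edgeR adjusted p = 0.466). Without MI_ART 2, the library with the most Myl7 in that group, Tbx5 was lower by -1.30 with an adjusted p of 0.0331, and without MI_ART 3, the lowest library, it had -0.16. Mef2c had -0.40, Irx4 -0.22, Nr2f2 -0.21, Gata4 -0.14, Nkx2-5 -0.04 and Tbx20 0.01, none of which passed. With total counts, where 42.2% of all genes were called and 98.5% of the calls were higher (63.5% with TMM), 3 members were called higher, Gata4 (0.58), Nr2f2 (0.54) and Tbx20 (0.75), which stood at -0.17, -0.21 and -0.00 relative to the median gene of that scaling.

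Each factor was also set against the summed counts of 10 genes made by all heart muscle cells (Tnnt2, Tnni3, Actc1, Myh6, Ttn, Tnnc1, Mybpc3, Ryr2, Actn2 and Tcap). Per 1000 such counts, Gata4 was at 1.96, 2.04 and 1.55 in Sham, 3.54, 3.62 and 3.89 in MI and 3.38, 3.07 and 2.84 in MI_ART. All infarcted libraries exceeded all Sham libraries, and all MI_ART libraries lay below all MI libraries. Nkx2-5 was at 0.469, 0.602 and 0.316 in Sham, 1.07, 0.849 and 2.41 in MI and 0.867, 0.840 and 0.769 in MI_ART. Hey2 was at 0.108, 0.240 and 0.122 in Sham, 0.113, 0.130 and 0.121 in MI and 0.128, 0.170 and 0.130 in MI_ART, with all groups overlapping. Myh6 (24271 CPM) and Actc1 (13408 CPM) held most of the summed 61141 CPM in Sham 1. Myh6, Actc1 and Ryr2 are also among the genes that the chamber factors are known to regulate, so the ratio is not a measure per muscle cell.

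By this ratio 7 of the 9 members were higher in MI than in Sham without overlap, all but Hey2 and Irx4, in a comparison where 61.8% of all tested genes were higher in the same way. In MI_ART versus Sham 6 of 9 were higher without overlap (Nr2f2, Irx4, Hand2, Nkx2-5, Gata4 and Tbx20), where 63.3% of all genes were. Neither count is read as a result about the members, given those shares. Gata4 was the 1 member lower in MI_ART than in MI without overlap, as were 5.06% of all genes. The median log2 difference of this ratio over all genes was 1.09 in MI versus Sham, and the members' differences ran from -0.28 (Hey2) and 0.16 (Irx4) to 1.29 (Mef2c) and 1.54 (Nkx2-5).

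**Figure D5:**
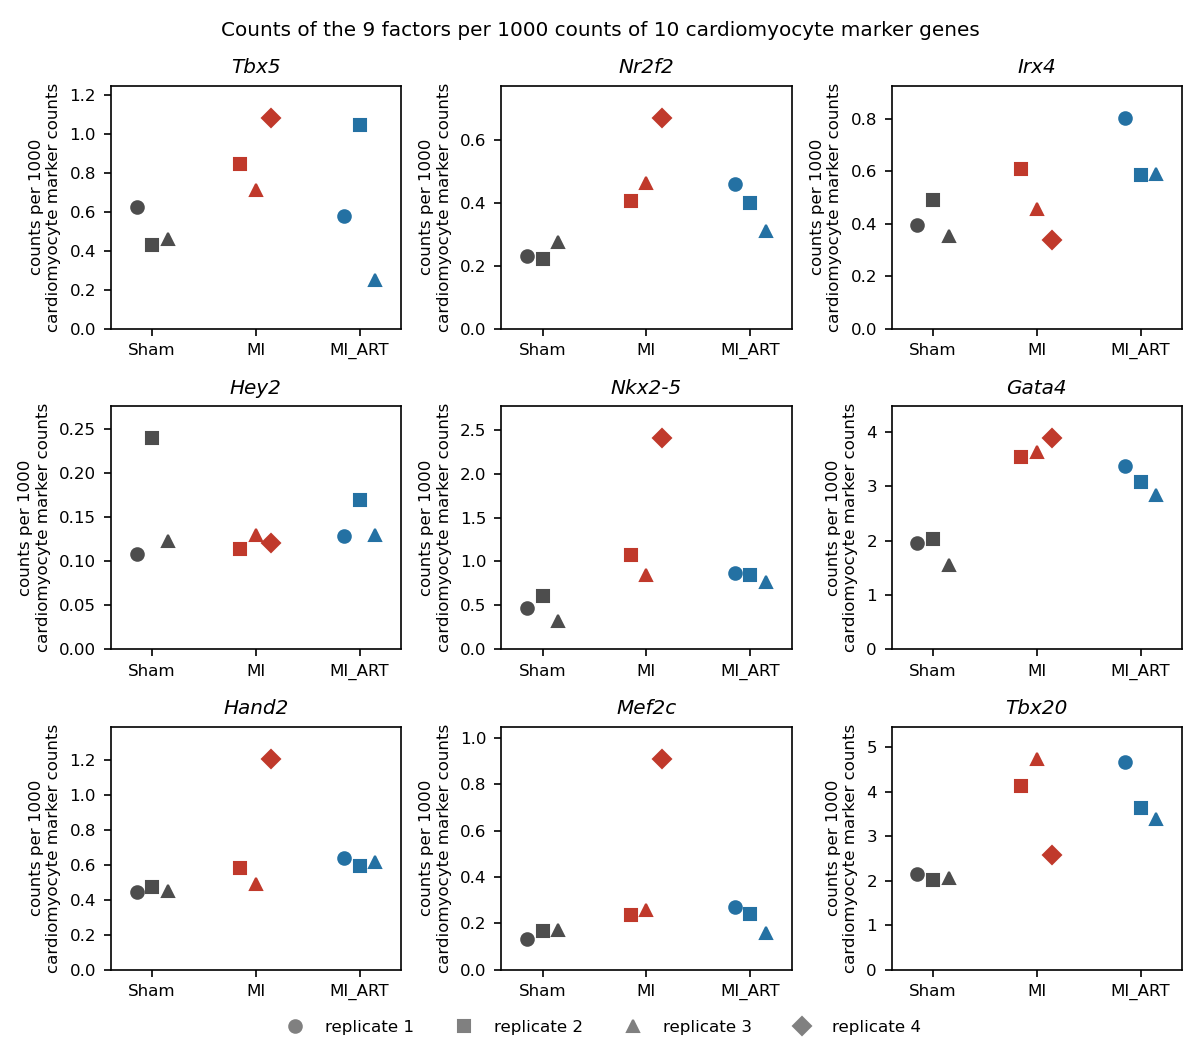
Counts of each factor per 1000 counts of 10 heart muscle genes in the same library (axis from 0), by group, with symbols for the replicate number. Gata4, Nkx2-5 and Tbx20 of all infarcted libraries sit above those of Sham, as most genes did by this ratio, whereas the Hey2 points of the 3 groups overlap.

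Other genes of the same regulatory network were read from a list of 39 further cardiac transcription factors and cofactors, of which 35 were tested. Irx6 and Nkx2-6 had no counts, and Hand1 and Mef2b reached at most 0.302 and 0.284 CPM. In MI versus Sham 3 rose and 3 fell, a smaller share than the 33.1% of all genes, and the median log2 value was -0.33. With total counts 11 were higher and 1 lower, beside 49.3% and 3.33% of all genes. DESeq2 called 3 higher and 8 lower, beside 39.1% of all genes in either direction. Mrtfa, an actin-regulated partner of serum response factor, rose 3.09-fold from 4.24 ± 0.456 to 13.1 ± 3.52 CPM (SD, n = 3 each, edgeR adjusted p = 0.000881). Gata5, a relative of Gata4 made in endocardium and epicardium, rose 3.08-fold from 0.869 ± 0.301 to 2.68 ± 0.689 CPM (edgeR adjusted p = 0.0129). Hopx, a homeodomain protein without DNA binding that acts downstream of Nkx2-5, fell 3.80-fold from 216.3 ± 37.5 to 56.9 ± 22.9 CPM (edgeR adjusted p = 0.00106). Meis2, a TALE homeobox factor, fell by 0.84 on the log2 scale, from 21.2 ± 1.67 to 11.8 ± 1.99 CPM (edgeR adjusted p = 0.00962). With total counts the log2 value of Meis2 was -0.00, which is -0.88 relative to the median gene in that scaling. Among relatives of the members, Hey1 (log2 -0.02), Heyl (0.52), Nr2f1 (-0.05), Irx3 (-0.75, adjusted p = 0.0510) and Mef2a (-0.85, adjusted p = 0.0539) did not pass.

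In MI_ART versus MI none of these 35 passed by edgeR, with 6 at an unadjusted p under 0.05 beside 6.96% of all tested genes. DESeq2 and limma-voom also called 0. The smallest p belonged to Irx1 (log2 1.64, SE 0.60), Meis2 (0.53), Zfhx3 (0.49) and Prdm16 (0.53), each with an edgeR adjusted p of 0.709. Irx1 had 2.39 without MI 2 and 0.83 without both MI 4 and MI_ART 3. In MI_ART versus Sham 2 rose and 1 fell, beside 12.9% and 7.41% of all tested genes. Without MI 4 there were 3 higher and 5 lower, where 31.8% of all tested genes were called, from 20.3%. Mrtfa rose 2.70-fold and Gata5 2.70-fold, and Hopx fell 2.62-fold (edgeR adjusted p = 0.00301, 0.0341 and 0.00906). The Gata5 call was lost without Sham 1, Sham 2, MI_ART 1 or MI_ART 2 (adjusted p from 0.0945 to 0.111). The 4th by p, Tbx18 of the epicardium and sinus node, had 0.69 and an adjusted p of 0.0918, and it passed without Sham 1 (0.0485) or MI 4 (0.0431).

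Genes that the chamber factors are known to regulate were read from a list of 19. In MI versus Sham 8 fell and 1 rose, with a median log2 value of -0.83, beside 14.3% of all genes called lower and 18.8% higher. With total counts 4 were lower and 3 higher, beside 3.33% and 49.3% of all genes. Nppb, the B-type natriuretic peptide gene driven by Gata4, rose 7.05-fold from 68.0 ± 29.3 to 480 ± 108 CPM (SD, n = 3 each, edgeR adjusted p = 0.000551), while Gata4 itself had a log2 value of -0.08. Kcnip2, a subunit of the transient outward potassium channel, fell 5.72-fold, phospholamban (Pln) 4.57-fold and Myh6, the alpha myosin heavy chain, 2.68-fold. In MI_ART versus MI none of the 19 passed by edgeR, with 6 at an unadjusted p under 0.05 beside 6.96% of all tested genes. DESeq2 and limma-voom also called 0. Kcnip2 had a log2 value of 1.21, Nppb -1.25 and Atp2a2, the calcium pump, 0.94. Bmp10, an atrial growth factor, had -6.95 there, which rests on MI 4 (42.0 CPM) and turned to 6.04 without it, where MI 2 and MI 3 were at 0, so that neither fitted value is a bound on the change. In MI_ART versus Sham 3 fell and 1 rose, beside 7.41% and 12.9% of all genes. Nppb rose 2.98-fold, Myh6 fell 1.99-fold, Pln 2.60-fold and Kcnip2 2.48-fold (edgeR adjusted p = 0.0144, 0.00926, 0.0212 and 0.0231). With total counts 2 were higher and 0 lower, beside 41.6% and 0.642% of all genes. Without MI 4 the TMM count became 9 lower and 1 higher, and it was 1 lower without MI_ART 1 and 1 lower and 1 higher without MI_ART 2 or MI_ART 3. Of all tested genes 20.3% were called with all libraries and 31.8% without MI 4. That share was 10.2%, 14.7% and 12.2% without MI_ART 1, MI_ART 2 and MI_ART 3, so the change in the count is not read as a result about these genes. Calls lost were Nppb without MI_ART 1, Pln without Sham 3 or any single MI_ART library, and Kcnip2 without Sham 2 or any single MI_ART library.

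The genes whose pattern was most like that of each member were ranked by Pearson's r of log2 CPM over the 9 libraries, after the mean of each group was subtracted, among 12653 named protein-coding genes with a mean of at least 1 CPM. Tbx5 was most like C7 (r = 0.983), Sort1 (0.980) and Rps6ka6 (0.979), and Nr2f2 like Nme6 (0.988), Igfbpl1 (0.965) and Pomk (0.963). Irx4 was most like Dapk1 (0.986), Kat6a (0.984) and Lrig2 (0.983), and Hey2 like Osbpl3 (0.973), Zfp839 (0.972) and Hic2 (0.949). Gata4 was most like Kcnj11 (0.966), Pde4a (0.957) and Hjv (0.955), and Nkx2-5 like Neurl2 (0.994), Mrps18a (0.994) and Atat1 (0.991). Hand2 was most like Phb (0.994), Rdm1 (0.990) and Zc3hc1 (0.989), Mef2c like Aspscr1 (0.996), Rrp1 (0.989) and Tent4b (0.988), and Tbx20 like Hccs (0.993), Kif3c (0.989) and Trim44 (0.987). These are the highest of 12653 values over only 9 libraries and are given as descriptions. Without MI 4, a choice made after seeing the data, the r of Tbx20 with its nearest genes was 0.920, 0.857 and 0.839, and that of Tbx5 stayed between 0.984 and 0.996.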

How the data were processed

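The authors deposited whole-number counts for each Ensembl gene, made with HISAT (version not given) and featureCounts 1.5.0-p3 on GRCm38, with DESeq 1.8.3 also named, per the submitters' processing notes. The strand setting, multi-mapping rule and filters: not given in the sources used here. The 9 per-sample tables equal the series table, with 0 differing values. RefSeq GRCm38.p6 gave gene positions.

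The analysis used edgeR 4.0.16 under R 4.3.3. filterByExpr left 19326 genes, all 9 members among them. Libraries were scaled by TMM, and 1 mean per group was fitted to all 9 libraries (common dispersion 0.150). Quasi-likelihood F tests gave p-values, adjusted by Benjamini-Hochberg over all tested genes, with calls at 0.05. SE is the fold change over the root of F, and intervals use the fit's degrees of freedom. DESeq2 1.42.0, limma 3.58.1 (voom), other scalings, no filter, a covariate, 2-group fits and left-out libraries were alternatives. Intervals and levels cover counting error and the spread of 3 libraries.

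The members and lists were chosen with earlier results of these data known. Named beside the members are, per comparison, the 4 genes with the smallest p of each of 2 lists, the light chains and the 3 genes most like each member. Relatives of the members, Ttn, Kcnj3 and Fabp4 were named after their values were seen.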

Additional observations from a re-analysis of the deposited data

How the results depend on the processing

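Hey2 in MI versus Sham kept its direction and lost its call with total counts alone. Of 540 values (9 factors, 3 comparisons, 20 alternatives), 475 kept their direction and side of the threshold. With the direction kept, 16 came to pass it and 1 lost it, and the remaining 48 changed sign. Among these 48, Nr2f2, Gata4 and Tbx20 in MI versus Sham and Nr2f2 and Gata4 in MI_ART versus Sham also passed, as higher, with total counts. The cause was not tested.

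In MI versus Sham the number of factors called was 1, and it became 2 with upper-quartile factors, DESeq2, limma-voom or without MI 4 and MI_ART 3, 5 with total counts, 3 with the replicate block, and 1 to 2 with 1 library left out. In MI_ART versus Sham it was 0, and became 3 with total counts, 1 with DESeq2, with only the 2 groups compared or with the replicate block, and 0 to 1 with 1 library left out. Calls among the other cardiac factors became 12 with total counts and 11 with DESeq2 in MI versus Sham, from 6 (5 to 9 with 1 library left out). In MI_ART versus Sham they became 7 with total counts, 8 with only the 2 groups compared, 6 without MI 4 and MI_ART 3 and 9 with the replicate block, from 3 (2 to 8 with 1 library left out). Calls among the regulated genes in MI_ART versus Sham became 2, 7, 10, 8 and 9 with total counts, DESeq2, only the 2 groups compared, without MI 4 and MI_ART 3 and with the replicate block, from 4 (1 to 10 with 1 library left out). Of all tested genes 42.2%, 26.7%, 32.6%, 24.9% and 30.7% were called in the same order, from 20.3% (10.2% to 31.8% with 1 library left out). In MI versus Sham that share was 52.6% with total counts and 39.1% with DESeq2, from 33.1% (23.8% to 33.7% with 1 library left out). The changes in these counts are not read as results about the lists.

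Signs changed with total counts in MI versus Sham for Tbx5 (0.55), Nr2f2 (0.84), Hand2 (0.47), Gata4 (0.76) and Tbx20 (0.68), and in MI_ART versus Sham for Tbx5 (0.19), Nr2f2 (0.54), Irx4 (0.51), Hand2 (0.29), Nkx2-5 (0.68), Gata4 (0.58) and Mef2c (0.35). Nr2f2 in MI versus Sham was 0.010 without a filter on low counts and 0.013 with only the 2 groups compared, where Nkx2-5 in MI_ART versus Sham was 0.0062. Without MI 4 and MI_ART 3, Mef2c (-0.31) and Tbx20 (0.13) changed sign in MI versus Sham, and Tbx5 (0.17), Nr2f2 (0.033), Hand2 (0.24), Mef2c (0.086), Tbx20 (-0.057) and Bmp10 (6.60) in MI_ART versus MI. With the Myl7 to Myl2 ratio as a covariate, Tbx5 (0.30), Nr2f2 (0.022), Hand2 (0.036) and Bmp10 (2.93) did so in MI_ART versus MI, and Nkx2-5 (0.0020) in MI_ART versus Sham.

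The replicate numbers did not pair the libraries: correlations of deviations were -0.0553 to 0.0628 over 7 same-numbered pairs and -0.117 to 0.0993 over 20 others, and 3 of 8 libraries correlated best with their own number. With the replicate block, Gata4 (0.0083), Mef2c (-0.34) and Tbx20 (0.17) changed sign in MI versus Sham, as did Hand2 (0.31), Tbx20 (-0.16) and Bmp10 (5.44) in MI_ART versus MI.

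With 1 library left out, signs changed in MI versus Sham for Nr2f2 (range -0.13 to 0.075), Gata4 (-0.19 to 0.014), Mef2c (-0.31 to 0.68) and Tbx20 (-0.35 to 0.13). They changed in MI_ART versus MI for Tbx5 (-1.04 to 0.13), Hand2 (-0.30 to 0.26), Gata4 (-0.16 to 0.038), Tbx20 (-0.12 to 0.36) and Bmp10 (-7.67 to 6.04), and in MI_ART versus Sham for Nkx2-5 (-0.25 to 0.15) and Tbx20 (-0.044 to 0.080). These values rest on 3 libraries a group, and Bmp10 was at 0 CPM in MI 2 and MI 3. The parts of counting depth and of the spread between libraries were not separated.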

Other observations

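Of 8 epicardial and mesothelial markers, a layer that makes Tbx18 and Gata5, 5 rose in MI versus Sham (edgeR, beside 18.8% of all tested genes called higher), and 2 rose in MI_ART versus Sham. Aldh1a2, which makes retinoic acid, rose 4.88-fold, and its level was 14.6, 8.73 and 11.2 CPM in Sham, 58.1, 58.7 and 51.8 CPM in MI and 77.1, 55.5 and 45.2 CPM in MI_ART. Every infarcted library was above every Sham library. The summed level of the 8 markers was 79.7 to 128.6 CPM in Sham, 196.4 to 326.8 CPM in MI and 103.2 to 214.0 CPM in MI_ART, and with total counts MI was likewise above Sham without overlap.

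Of 11 conduction and pacemaker markers 1 rose (Cacna1d, a calcium channel) and 1 fell in MI versus Sham. Their summed level was 146.9 to 152.7 CPM in Sham, 103.7 to 109.1 CPM in MI and 126.6 to 145.8 CPM in MI_ART, without overlap. With TMM the separation lay in 1 gene, Smoc2, which fell and which fibroblasts also make, at 89.0 to 99.4 CPM in Sham, 49.2 to 59.3 CPM in MI and 75.5 to 81.9 CPM in MI_ART. Without Smoc2 the sum of the other 10 was 49.9 to 63.7 CPM in Sham, 49.8 to 54.6 CPM in MI and 51.1 to 64.0 CPM in MI_ART, which overlap. With total counts in place of TMM the order turned for the 11 markers, at 93.9 to 109.3 in Sham, 123.7 to 139.9 in MI and 148.0 to 166.7 in MI_ART. The 10 without Smoc2 were then at 31.9 to 45.3 in Sham, 63.8 to 65.6 in MI and 59.8 to 73.1 in MI_ART. Sham thus lay below both infarcted groups without overlap in that scaling, where the median log2 value of all genes was 0.88 in MI versus Sham. Both readings were added after seeing the data. Tbx3, the factor that keeps nodal cells from becoming working muscle, had a log2 value of -0.69 (edgeR adjusted p = 0.0614). Aldh1a2, Cacna1d, Smoc2 and Tbx3 were named after their values were seen.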
